A study of Mus musculus with 6 samples.

Results

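Amino acid transporters are described here as a set of 62 protein-coding mouse genes among 48432 genes in the deposited table. They were taken by symbol alone, as genes whose symbols begin with Slc1a, Slc3a, Slc6a, Slc7a, Slc36a, Slc38a or Slc43a, with Slc1a2 and Slc7a11 left out. The names cover 61 carriers or their subunits, and Slc7a6os, a neighbour of Slc7a6 that shares its name but is no carrier. Transcripts were measured by poly(A) RNA sequencing of hepatocytes isolated from FVB mice, in 6 samples: 2 from normal fed adults, 2 from adults given DDC, a porphyrin-inducing liver toxicant, in the feed for 4 weeks, and 2 from livers of embryonic day 18 (E18), each a pool of about 8 embryos. The sources used here give no age in weeks, sex or further genotype. They also do not say that the adult samples were from different mice, and p-values then measure only the spread between these samples, which may be technical. The samples are numbered 0 and 1 within a group, after the column names.

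Amino acids cross membranes through carriers of several families. SLC1 and many SLC6 and SLC38 proteins couple uptake to sodium and can concentrate their substrate, whereas the SLC7 light chains exchange one amino acid for another and reach the cell surface only when bound to a heavy chain, Slc3a1 or Slc3a2. SLC43 proteins let large neutral amino acids pass down their gradient, and SLC36 proteins use protons and lie partly on lysosomes. The adult liver draws glutamine, alanine and other gluconeogenic amino acids from the portal blood through systems N and A, which belong to SLC38. Dividing and fetal cells are known for high levels of the exchangers of large neutral amino acids and glutamine.

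Levels are given in TPM, a share of transcripts that is scaled by their length, so that they may be compared between genes. Depth is unknown, because the table holds no counts. Differences were tested with limma on log2(TPM + 1), and a gene passed at an adjusted p below 0.05 over the 14307 genes tested. Fold changes are log2 differences of these values ± SE, a scale that understates changes of genes near or below 1 TPM. The 3 groups share 1 estimate of the spread, so a sample left out of a group can alter calls in comparisons that do not use that group. A gene listed at 0 in both samples of a group gets no fold change against it, since a 0 in this table can be a failed estimate.

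Libraries and cell types differed between the groups beside the members. The median fold change of all genes tested was 0.45 for DDC and 1.06 for E18 against normal fed, and median-ratio scaling, which sets the typical gene equal between samples, moved it to 0.00 and 0.09. Most calls below are therefore given with their value under that scaling. Between the normal fed samples, sample 1 was lower than sample 0 in 22 of the 23 members with a normal fed mean of at least 1 TPM, with a median ratio of 2.07 between the samples, against 1.20 between the DDC fed and 1.28 between the E18 samples. Over all genes tested with a normal fed mean of at least 1 TPM, sample 1 minus sample 0 had a median of -0.65 on the log2 scale in the longest 20% by exon length and 0.10 in the shortest 20%. The summed TPM of 9 hepatocyte markers was 57630 and 62110 in normal fed, 42530 and 41400 in DDC fed and 11720 and 7843 in E18 samples. In the E18 samples 8 markers of neutrophils and their precursors summed to 56750 and 67610 TPM (at most 4.15 in any adult sample), 13 erythroid markers to 13020 and 24370 (at most 39.9), 8 markers of megakaryocytes and mast cells to 1993 and 2254 (at most 8.42) and 8 lymphocyte markers to 96.4 and 122 (at most 0.641). Macrophage markers, 12 in all, summed to 161 and 133 in normal fed, 1311 and 1607 in DDC fed and 4047 and 5202 in E18 samples, 10 endothelial markers to 49.2 and 18.8, 188 and 198, and 495 and 496, and 10 stellate and fibroblast markers to 25.5 and 11.6, 372 and 330, and 349 and 318. Cholangiocyte markers, 8 in all, summed to at most 14.2 in normal fed samples and to between 102 and 177 in the others. The sums of 4 neuronal and 3 mesothelial markers reached at most 7.56 and 10.5 TPM in any sample. No marker was listed at 0 in all 6 samples, and the part of these cells in the members' differences was not tested. In such samples, fewer cells of a type and less RNA per cell cannot be told apart.

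More members reached 10 TPM at E18 than in either adult group. At 10 TPM or more there were 13 and 11 members in the normal fed, 19 in each of the DDC fed, and 28 and 26 in the E18 samples. The median of all genes tested was also higher at E18, by 1.06 against normal fed on the log2 scale. How many of all genes reached 10 TPM was not counted, so the rise in members is not set apart from that shift. Of the 62 members, 38 passed the filter of 1 TPM in at least 2 samples and were tested. Of these, 18 reached 1 TPM in both samples of every group and 13 in both samples of 1 group only, 11 of them at E18, so that for those the filter itself favoured a difference.

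With DDC, 17 of the 38 tested members were higher than in normal fed samples (44.7%, against 34.2% of all genes tested) and 1 was lower (2.63% against 3.07%). At E18, 27 were higher than in normal fed samples (71.1% against 63.0%) and 5 lower (13.2% against 12.7%). Between DDC fed adults and E18, 6 were higher with DDC (15.8% against 17.7%) and 20 lower (52.6% against 47.0%). The shares are a description and were not tested against the background. In each of these calls, both samples of 1 group lay above both of the other. That share was not taken over all genes called, and with 2 samples a group it adds little to a call. The median fold change of the tested members was 0.76, 1.53 and -0.73 in the 3 comparisons, against 0.45, 1.06 and -0.55 over all genes tested. The comparisons with normal fed adults share those samples. With samples left out 1 at a time, here and below, the count of 17 was 7 without either DDC fed sample and 10 without either E18 sample (8 with median-ratio scaling), and the count of 1 lower was 3 without normal fed sample 1. The 6 members higher with DDC than at E18 became 11 without either normal fed sample, 3 without DDC fed sample 0 and 2 without E18 sample 1. Under median-ratio scaling, quantile normalization and rescaling without the 50 highest genes alike, the members called with DDC that passed were Slc1a1, Slc1a4, Slc43a2, Slc43a3, Slc6a8, Slc7a7 and Slc7a8, all higher, and Slc6a16, lower. Of these, Slc1a1 and Slc6a16 passed the filter only through the group in which they were high. At E18 against normal fed, 16 of the 27 higher and all 5 lower members passed under the same 3 scalings. Of the 16, Slc1a5, Slc36a2, Slc38a1, Slc38a5, Slc6a20a, Slc6a3, Slc6a4, Slc7a1, Slc7a5 and Slc7a6 reached 1 TPM in both samples only at E18. For those the filter itself favoured a rise, and passing under the scalings does not remove that. Without either E18 sample, 2 members and not 5 were lower at E18.

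**Figure D1:**
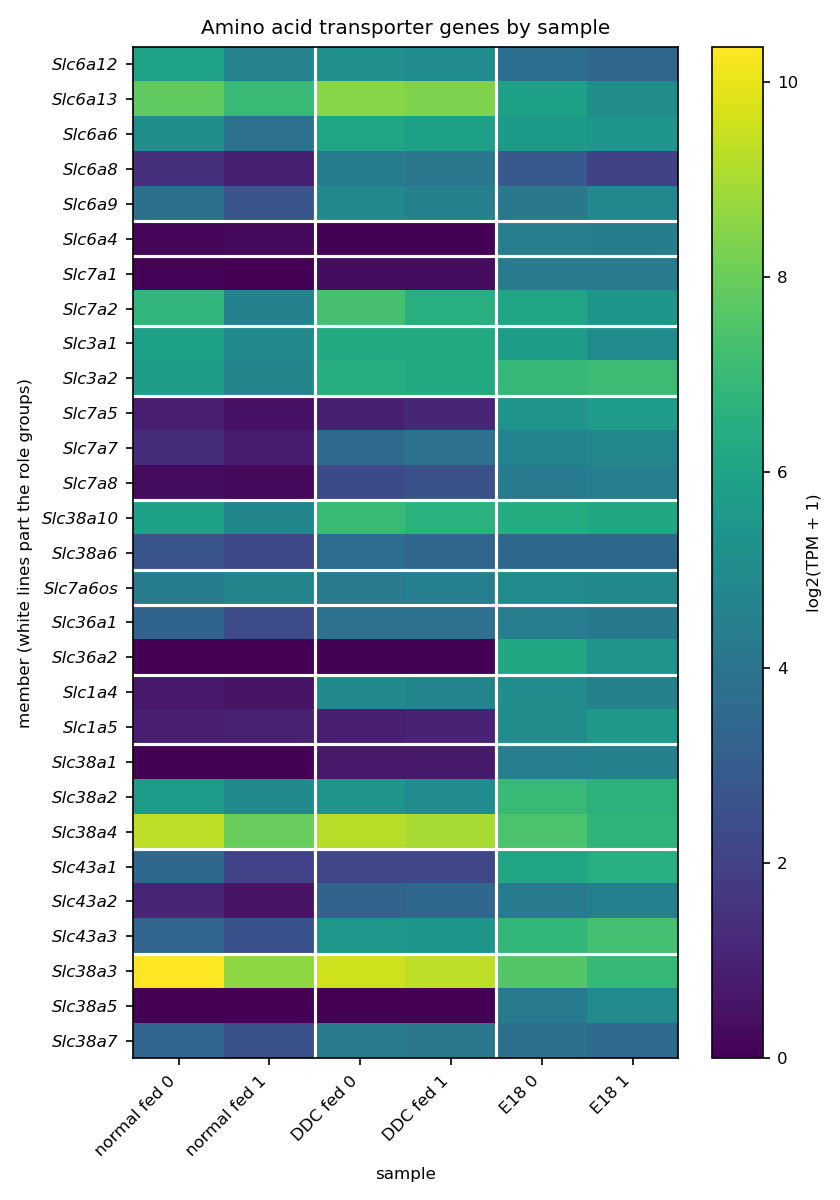
Heat map of log2(TPM + 1) for the 29 members with a mean of at least 10 TPM in some group, by sample (columns) and by role group (rows, parted by white lines). Slc38a3, Slc38a4 and Slc6a13 are the brightest rows in the adult samples, while Slc38a5, Slc36a2, Slc7a1 and Slc6a4 are bright only in the E18 columns.

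Systems N and A supplied most carrier transcripts of adult hepatocytes. Slc38a3, a system N carrier that moves glutamine, histidine and asparagine in either direction, was the highest member in each group by its mean, although in E18 sample 1 Slc43a3 (152 TPM) and Slc3a2 (138 TPM) exceeded it. It lies on chromosome 9 from 107650634 to 107669530 (GRCm38, minus strand). Its level was 1309 and 385 TPM in normal fed, 781 and 644 in DDC fed, and 191 and 117 in E18 samples. Both E18 samples lay below all adult samples, and the DDC fed samples lay between the 2 normal fed ones. At E18 it fell by 2.24 ± 0.56 on the log2 scale (adjusted p = 0.0094; -3.44 with median-ratio scaling). The fall was -3.12 without normal fed sample 1 and -1.36 without sample 0, and it did not pass without either E18 sample (adjusted p of 0.0609 and 0.124). With DDC the 95% interval of the difference ran from -1.35 to 1.35, and a change within it was not detectable here.

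Slc38a4, a system A carrier of small neutral amino acids and one of the liver's own, was at 645 and 243 TPM in normal fed, 607 and 504 in DDC fed and 169 and 104 in E18 samples. Here too both E18 samples were the lowest, at -1.57 ± 0.48 against normal fed (adjusted p = 0.021; -2.77 with median-ratio scaling; -2.27 and -0.87 without normal fed sample 1 or 0; not passing without either E18 sample, adjusted p of 0.0756 and 0.192). Slc38a2, the system A carrier that cells raise when amino acids are short, ran the other way, at 52.2 and 29.0, 40.7 and 31.7, and 130 and 99.3 TPM. The rise at E18 was 1.52 ± 0.32 (adjusted p = 0.0042), but 0.33 and not passing with median-ratio scaling (adjusted p = 0.257) and not passing without E18 sample 0 (0.0662). Against DDC fed adults Slc38a2 was higher at E18 under that scaling as well (DDC minus E18 -1.63 ± 0.32, adjusted p = 0.0039; -1.10 with median-ratio scaling; adjusted p = 0.0658 without E18 sample 0).

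Slc38a1, the third system A carrier, is widely expressed outside the liver and was nearly absent from the adult samples. It was at 0.05 and 0.03 TPM in normal fed, 0.64 and 0.69 in DDC fed and 20.8 and 22.6 in E18 samples. Its rise at E18 was 4.45 ± 0.15 (adjusted p = 1.5e-06; 3.85 with median-ratio scaling). With DDC the difference was 0.67 ± 0.15 (adjusted p = 0.0123), at a level still below 1 TPM, and it did not pass with quantile normalization (0.20, adjusted p = 0.323) or without either DDC fed sample (0.101 and 0.117). Slc38a1 and Slc38a2 are neighbours on chromosome 15, 44.5 kb apart on the same strand.

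The other system N carriers differed from Slc38a3. Slc38a5 was at 18.7 and 30.5 TPM at E18, while the 4 adult samples listed it at 0 (adjusted p = 4.2e-06, with no fold change against 0). Slc38a7, a lysosomal glutamine and asparagine exporter, was at 9.30 and 5.005, 18.1 and 16.1, and 13.0 and 10.6 TPM. Its rise with DDC was 1.20 ± 0.29 (adjusted p = 0.0192), and 0.60 and not passing with median-ratio scaling (0.0754), nor without either DDC fed or either E18 sample (0.0792 to 0.124). Summed over the 3 system N genes, the E18 samples held 222 and 158 TPM against 1318 and 390 in the normal fed samples.

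Slc6a13 and Slc6a12, which take up GABA, taurine and betaine with sodium, formed a further pair of adult liver carriers. They lie 5.34 kb apart on chromosome 6, Slc6a13 from 121300227 to 121337733 and Slc6a12 from 121343076 to 121365775, both on the plus strand. Slc6a13 was at 224 and 127 TPM in normal fed, 370 and 327 in DDC fed and 59.8 and 34.1 in E18 samples, with no overlap between any groups. It fell at E18 by 1.88 ± 0.36 on the log2 scale (adjusted p = 0.0029; -3.06 with median-ratio scaling), and the difference with DDC was 1.04 ± 0.36 (adjusted p = 0.064). Slc6a12 was at 61.5 and 22.9, 37.1 and 31.9, and 12.6 and 9.62 TPM. It was lower at E18 by -1.69 ± 0.43 (adjusted p = 0.0102; -2.82 with median-ratio scaling; -2.38 and -1.0 without normal fed sample 1 or 0), not passing without either E18 sample (0.0761 and 0.122). Its difference with DDC was -0.13 (95% interval from -1.16 to 0.90).

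Slc38a3, Slc38a4 and Slc6a13 together made up 81.2% and 78.7% of all carrier TPM in the normal fed samples, 68.6% and 69.1% in the DDC fed and 27.2% and 18.8% in the E18 samples. The sum over all 61 carriers was 2681 and 960, 2563 and 2136, and 1545 and 1360 TPM, so it overlapped between the normal fed and the other groups. Against DDC fed adults, E18 was lower for Slc38a3 (DDC minus E18 2.24 ± 0.56, adjusted p = 0.0116), Slc38a4 (2.05 ± 0.48, adjusted p = 0.0085), Slc6a13 (2.92 ± 0.36, adjusted p = 0.00049) and Slc6a12 (1.56 ± 0.43, adjusted p = 0.0173), all with both samples apart. Of these, Slc6a13 passed whichever sample was left out, and the others did not pass without either E18 sample or DDC fed sample 0 (adjusted p from 0.052 to 0.170), nor Slc6a12 without DDC fed sample 1.

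**Figure D2:**
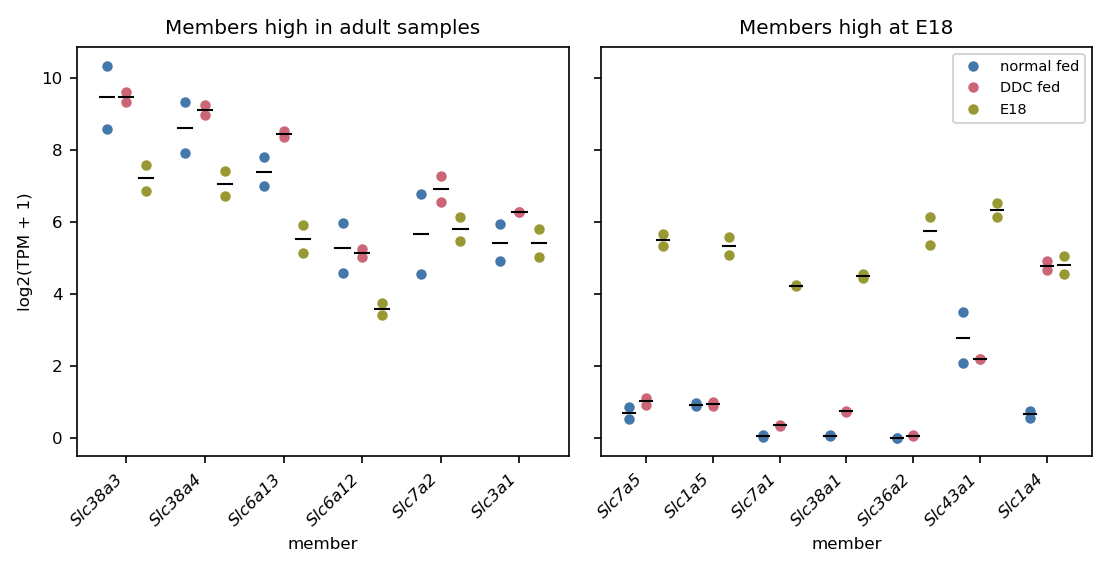
Level of single members as log2(TPM + 1), with 1 point per sample and a bar at the mean of the 2 samples of a group. Left, Slc38a3, Slc38a4, Slc6a13 and Slc6a12 are lowest at E18, while the groups of Slc7a2 and Slc3a1 overlap with normal fed or lie close to it. Right, Slc7a5, Slc1a5, Slc7a1, Slc38a1, Slc36a2 and Slc43a1 are highest at E18 and low in both adult groups, while Slc1a4 is as high in DDC fed as in E18 samples.

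Among the heteromeric exchangers, the heavy chain Slc3a2 and 4 of its light chains were higher at E18 than in normal fed adults, as were 63.0% of all genes tested. Slc3a2, the heavy chain of most SLC7 light chains, was at 53.0 and 25.5 TPM in normal fed, 85.7 and 79.2 in DDC fed and 118 and 138 in E18 samples. It was higher at E18 by 1.77 ± 0.34 (adjusted p = 0.0027), with 0.58 and no pass under median-ratio scaling (adjusted p = 0.0718) and no pass without E18 sample 1 (0.0534). With DDC the value was 1.1 ± 0.34 (adjusted p = 0.0378), 0.48 under median-ratio scaling (0.174), 0.63 and 1.65 without normal fed sample 1 or 0, and did not pass without any single DDC fed or E18 sample (0.121 to 0.175).

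Slc7a5 is the light chain that exchanges leucine and other large neutral amino acids for glutamine. On the log2(TPM + 1) scale it had the largest rise at E18 of all members with a fold change. With a pseudocount of 0.1 the values of Slc38a1, Slc7a1, Slc6a4 and Slc7a6 were larger. Slc7a5 lies on chromosome 8 from 121881150 to 121907694. Its level was 0.82 and 0.43 TPM in normal fed, 0.88 and 1.16 in DDC fed and 39.5 and 49.8 in E18 samples. The E18 samples were far above the adults, by 4.82 ± 0.22 against normal fed (adjusted p = 3.2e-06; 3.99 with median-ratio scaling), and DDC minus E18 was -4.49 ± 0.22 (adjusted p = 7.5e-06). With DDC it differed by 0.32 (95% interval from -0.20 to 0.85). Slc7a6, a light chain for cationic and neutral amino acids, was likewise at most 0.342 TPM in adult samples and at 8.37 and 9.98 at E18 (3.32 ± 0.13, adjusted p = 2.2e-06; 2.78 with median-ratio scaling).

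Slc7a7 and Slc7a8 rose in both comparisons. Slc7a7, which exports cationic amino acids for neutral ones and sodium, was at 1.46 and 0.78 TPM in normal fed, 11.0 and 14.1 in DDC fed and 24.5 and 26.4 in E18 samples. It rose with DDC by 2.69 ± 0.24 (adjusted p = 0.00037; 2.29 with median-ratio scaling) and at E18 by 3.66 ± 0.24 (adjusted p = 1.5e-05; 2.76). Slc7a8, a light chain for small and large neutral amino acids, was at 0.26 and 0.20, 4.01 and 4.996, and 17.5 and 20.8 TPM. Its rises were 2.16 ± 0.19 (adjusted p = 0.00037; 1.97 with median-ratio scaling) and 4.03 ± 0.19 (adjusted p = 3.9e-06; 3.34). The groups were ordered alike for both genes, with the DDC fed samples in between, and E18 exceeded DDC fed for Slc7a8 (DDC minus E18 -1.87 ± 0.19, adjusted p = 0.0002). For Slc7a7 that step was -0.97 ± 0.24 (adjusted p = 0.0112) and did not pass with median-ratio scaling (-0.46, adjusted p = 0.0778), nor without DDC fed sample 0 or either E18 sample (0.076 to 0.102). Macrophage, endothelial, stellate and cholangiocyte marker sums were higher in the same groups. Sums of neutrophil, erythroid, megakaryocyte and mast cell, and lymphocyte markers were far higher at E18 than in adults. The part of these cells in the rises of both genes was not tested. The 2 genes lie on chromosome 14.

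The light chains that pair with Slc3a2, taken as Slc7a5, Slc7a6, Slc7a7, Slc7a8 and Slc7a10, summed to 2.55 and 1.43 TPM in normal fed, 16.2 and 20.6 in DDC fed and 90.3 and 107 in E18 samples. Per TPM of Slc3a2 that was 0.0482 and 0.0558, then 0.189 and 0.260, then 0.764 and 0.777. This ratio is formed within a sample and does not depend on its scaling, and the groups did not overlap. Slc3a1, the heavy chain of the cystine and dibasic amino acid exchanger, gave a different picture. It was at 60.3 and 29.3 TPM in normal fed, 76.6 and 76.2 in DDC fed and 54.8 and 31.4 in E18 samples, while Slc7a9, its light chain in kidney and intestine, was at 5.83 and 0.957 TPM at E18 and at 0 in each adult sample. Slc7a13, a further light chain reported to pair with Slc3a1, reached at most 0.0417 TPM in any sample. Slc3a1 passed in none of the 3 comparisons (adjusted p = 0.135 with DDC, 0.967 at E18 and 0.0923 between them), though with median-ratio scaling it was lower at E18 than in normal fed samples (-1.19, adjusted p = 0.0144) and than in DDC fed samples (DDC minus E18 1.38, adjusted p = 0.0095).

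**Figure D3:**
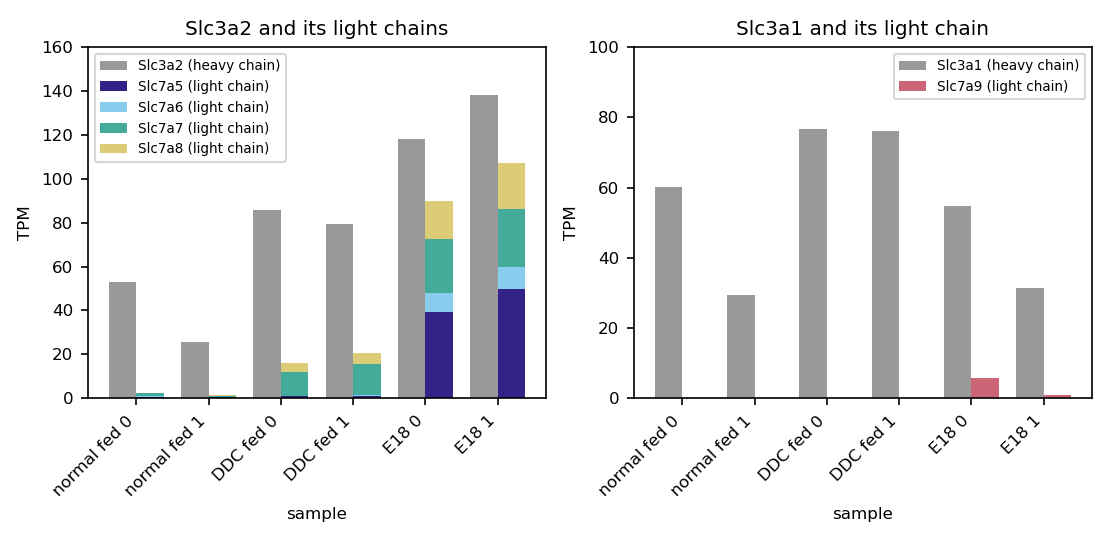
TPM of the heavy chains (grey bars) and their light chains (coloured, stacked in the left panel) in each sample. On the left, the light chains of Slc3a2 stand at up to 2.55 TPM in normal fed and up to 107 TPM in E18 samples, and on the right adult samples hold Slc3a1 with Slc7a9 listed at 0.

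Among sodium-coupled carriers of the SLC1 family, the paired neutral amino acid exchangers Slc1a4 and Slc1a5 parted with DDC. Slc1a4, which carries alanine, serine and cysteine, lies on chromosome 11 from 20302180 to 20332713. It was at 0.69 and 0.47 TPM in normal fed, 29.2 and 24.5 in DDC fed and 32.6 and 22.4 in E18 samples. The DDC fed and E18 samples overlapped, and both lay far above normal fed. It rose by 4.14 ± 0.25 with DDC (adjusted p = 9.5e-05; 3.83 with median-ratio scaling) and by 4.15 ± 0.25 at E18 (adjusted p = 9.3e-06; 3.34). DDC minus E18 was -0.02 with a 95% interval from -0.61 to 0.58.

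Slc1a5, the glutamine exchanger known from proliferating cells, lies on chromosome 7 from 16781340 to 16798274. Its level was 0.84 and 0.96 TPM in normal fed, 0.83 and 0.996 in DDC fed and 33.2 and 46.9 in E18 samples. The adult groups overlapped, with a difference with DDC of 0.01 (95% interval from -0.51 to 0.53), whereas the E18 rise was 4.41 ± 0.22 (adjusted p = 4.3e-06; 3.51 with median-ratio scaling). With quantile normalization Slc1a5 was lower with DDC (-0.87, adjusted p = 0.0327). Slc1a1, a carrier of glutamate, aspartate and cysteine, was listed at 0 in both normal fed samples, at 4.22 and 1.54 TPM with DDC and at 0.0714 and 0 at E18 (adjusted p = 0.0036 for DDC against normal fed). It was higher with DDC than at E18 (1.82 ± 0.30, adjusted p = 0.0018), not passing without E18 sample 1 (0.0517). Slc1a3, Slc1a6 and Slc1a7 were not tested, with group means of at most 0.671 TPM.

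Start regions were searched for 10 short motifs in RefSeq windows (GRCm38.p6) from 250 bases before to 50 after each annotated start, on both strands. Windows were at hand for 44 of the 62 members, 65 in all, as a gene can have several starts, so that a count of members is not to be set against a share of windows. The motif TGATGCAA, the core of the element through which ATF4 and C/EBP proteins act on amino acid response genes, was found in 294 of 32851 windows (0.895%), and among the members in 3 of the 65 windows (4.62%), those of Slc1a4 and Slc7a7. In both it spans an annotated start. The sequences run 5′ to 3′ on the gene's strand, with the motif in capitals, in reverse complement for Slc1a4. They are shown because both genes rose with DDC and at E18 under every scaling. Slc43a2, Slc43a3 and Slc7a8 rose likewise under every scaling and are not among the members with this motif. As windows were not at hand for every member, a missing window and a missing motif are not told apart here.
Slc1a4, chr11:20332710-20332913, minus strand: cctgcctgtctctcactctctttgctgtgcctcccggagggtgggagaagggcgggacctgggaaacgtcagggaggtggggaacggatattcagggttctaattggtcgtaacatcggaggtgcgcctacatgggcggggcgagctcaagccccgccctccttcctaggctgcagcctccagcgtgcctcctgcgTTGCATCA
Slc7a7, chr14:54417938-54418144, minus strand: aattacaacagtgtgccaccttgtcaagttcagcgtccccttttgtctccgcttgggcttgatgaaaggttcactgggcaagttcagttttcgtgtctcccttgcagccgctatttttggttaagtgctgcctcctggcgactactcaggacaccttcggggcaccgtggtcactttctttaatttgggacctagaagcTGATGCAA
The Slc1a4 motif lies from -4 to 4 and the Slc7a7 motif from -1 to 7 around the start, and the same bases of Slc7a7 lie from -243 to -236 in the window of another of its starts. TGATGCAA is a special case of TGATGNAAN, which 3.95% of all windows and 6.15% of the members' hold and which adds Slc6a21 among members. TGATGNAAT was in 0.965% and 1.54%, the latter that of Slc6a21. GATAAG, a core of GATA factor sites, was in 7.44% of all windows and in 13.8% of the members' windows, those of 8 members, Slc38a4, Slc6a12, Slc6a20b, Slc6a3, Slc6a9, Slc7a15, Slc7a7 and Slc7a9. AGATAA, which overlaps it, was in 11.2% and 7.69%, and TGATAAG, which holds it, in 2.3% and 4.62%. CACGTG was in 7.15% and 13.8%, the latter those of 9 members, Slc1a6, Slc1a7, Slc36a1, Slc38a5, Slc38a7, Slc43a1, Slc6a16, Slc6a3 and Slc7a14. TGACTCA was in 5.2% of all windows and 7.69% of the members', TGACNNNGC in 12.4% and 16.9%, and the direct repeat bound by HNF4 and related receptors, searched as a full match, in 0.0244% and 0%. A match is a string of letters and was not tested as a site.

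Of the cationic amino acid carriers, Slc7a1 was found nearly only at E18, and Slc7a2 in all groups. Slc7a1, the widely expressed carrier of arginine and lysine, was at 0.06 and 0.01 TPM in normal fed, 0.28 and 0.27 in DDC fed and 17.6 and 18 in E18 samples. It rose at E18 by 4.18 ± 0.13 (adjusted p = 1.5e-06; 3.61 with median-ratio scaling) and differed with DDC by 0.30 (95% interval from -0.02 to 0.62). Slc7a2, known as the carrier of adult liver, had the highest ratio between the normal fed samples among members with a normal fed mean of at least 1 TPM, at 110 and 22.4 TPM, against 156 and 92.6 with DDC and 69.4 and 43.7 at E18. All groups overlapped with normal fed, the fold changes were 1.25 ± 0.69 with DDC (adjusted p = 0.201) and 0.14 ± 0.69 at E18 (0.866), and their 95% intervals, from -0.41 to 2.91 and from -1.52 to 1.80, leave large changes undetectable. Slc7a4, a relative with no established transport activity, was at 2.43 and 0.70, 5.64 and 4.19, and 5.65 and 5.13 TPM. It passed with DDC (1.28 ± 0.34, adjusted p = 0.0246; 0.78 and 1.79 without normal fed sample 1 or 0) and at E18 (1.40 ± 0.34, adjusted p = 0.0076; 0.90 and 1.91), but in neither with median-ratio scaling (0.0771 and 0.149), and at E18 the sign turned with quantile normalization (-0.36). Neither call passed when an E18 sample was left out, nor that of DDC without a DDC fed sample (0.0676 to 0.137).

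All 3 SLC43 facilitators were higher at E18, as were 63.0% of all genes tested, and 2 of the 3 also with DDC (34.2% of all genes tested). Slc43a1, a carrier of leucine and other large neutral amino acids, was at 10.2 and 3.26 TPM in normal fed, 3.601 and 3.55 in DDC fed and 69.2 and 91.9 in E18 samples. It rose at E18 by 3.54 ± 0.44 (adjusted p = 0.00032; 2.44 with median-ratio scaling; 2.85 and 4.24 without normal fed sample 1 or 0) and had a difference with DDC of -0.60 ± 0.44 (adjusted p = 0.321; -1.29, adjusted p = 0.0211, with quantile normalization). Slc43a2, a second such carrier, was at 1.19 and 0.45, 8.77 and 10.1, and 18.1 and 20.9 TPM. Its rises were 2.55 ± 0.25 with DDC (adjusted p = 0.00051; 2.22 with median-ratio scaling) and 3.52 ± 0.25 at E18 (adjusted p = 2.2e-05; 2.69). Slc43a3, a relative that carries purine nucleobases and not amino acids, was at 9.42 and 5.18, 44.9 and 42.8, and 116 and 152 TPM. It rose by 2.48 ± 0.29 (adjusted p = 0.00097; 1.88) and by 4.06 ± 0.29 (adjusted p = 2.2e-05; 2.93). Slc43a1 and Slc43a3 lie 73.0 kb apart on chromosome 2 on the same strand, and of the pair Slc43a3 was called with DDC. DDC fed samples lay below E18 for Slc43a1 (-4.14 ± 0.44, adjusted p = 0.00022) and Slc43a3 (-1.57 ± 0.29, adjusted p = 0.0031; 0.0593 without E18 sample 1). For Slc43a2 the value was -0.97 ± 0.25 (adjusted p = 0.0134; 0.107 with median-ratio scaling, and 0.0513 to 0.118 without any single DDC fed or E18 sample).

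Within SLC6, the creatine carrier Slc6a8 was raised most with DDC. It was at 1.68 and 0.88 TPM in normal fed, 19.6 and 16.3 in DDC fed and 6.41 and 2.96 in E18 samples. Both DDC fed samples lay above all others, by 3.07 ± 0.34 against normal fed (adjusted p = 0.00076; 2.66 with median-ratio scaling) and by 1.80 ± 0.34 against E18 (adjusted p = 0.0034; 2.2 with median-ratio scaling). Its value at E18 against normal fed was 1.27 ± 0.34 (adjusted p = 0.0123), but 0.46 with median-ratio scaling (0.220) and -0.49 with quantile normalization, and it did not pass without E18 sample 0 (0.82, adjusted p = 0.0987) or normal fed sample 1 (0.0548).

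The taurine carrier Slc6a6 was at 34.4 and 13.8, 68.3 and 58.7, and 48.4 and 42.8 TPM, and the glycine carrier Slc6a9 at 13.3 and 5.70, 30.3 and 21.5, and 16.5 and 27.8 TPM. With DDC they passed at 1.49 ± 0.39 (adjusted p = 0.0251) and 1.44 ± 0.42 (0.0361), with 0.84 and 0.83 and no pass under median-ratio scaling (0.0748 and 0.125). At E18 they passed at 1.02 ± 0.39 (adjusted p = 0.0489) and 1.20 ± 0.42 (0.0356), where scaling took the values to -0.14 for Slc6a6 (median-ratio) and -0.08 for Slc6a9 (quantile). None of these 4 calls passed without any single DDC fed or E18 sample, and 3 of them, all but that of Slc6a6 with DDC, did not pass without normal fed sample 1 (adjusted p from 0.0515 to 0.271 over these cases). Without normal fed sample 1 or 0 the values of Slc6a6 were 0.86 and 2.12 with DDC and 0.39 and 1.65 at E18, and those of Slc6a9 were 0.90 and 1.99, and 0.65 and 1.74.

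Slc6a4, the serotonin carrier through which platelets take up serotonin, belongs to the set by its symbol. It was at 20.8 and 19.6 TPM at E18 and at most 0.175 in adult samples (4.22 ± 0.14 against normal fed, adjusted p = 1.5e-06; 3.55 with median-ratio scaling). The dopamine carrier Slc6a3 was at 2.165 and 2.03 TPM at E18 and listed at 0 in all adult samples (adjusted p = 6.6e-06). In the same E18 samples 8 markers of megakaryocytes and mast cells summed to 1993 and 2254 TPM, against at most 8.42 in the adults, and their part in these values was not tested. The epithelial neutral amino acid carriers Slc6a19 and Slc6a20a were listed at 0 in normal fed samples, at most 0.106 TPM with DDC, and at 3.76 and 1.03, and 1.25 and 2.78 TPM at E18 (adjusted p = 0.0046 and 0.00069 against normal fed; Slc6a19 did not pass with quantile normalization). Against DDC fed adults Slc6a19 was higher at E18 (DDC minus E18 -1.54 ± 0.35, adjusted p = 0.0076; -0.92 without E18 sample 0 and -2.15 without sample 1; -0.57, adjusted p = 0.107, with quantile normalization). Slc6a20a has a near copy beside it, Slc6a20b, 2.204 kb away, which reads may be hard to tell from it. Slc6a16, an orphan member of the family, was the member that fell in both comparisons with normal fed adults. It passed the filter only through the normal fed samples, so that the filter itself favoured a fall, and its values lie near the floor. It was at 1.10 and 1.08 TPM in normal fed, 0.246 and 0.162 in DDC fed and 0.0382 and 0.0226 in E18 samples, with no overlap (-0.80 ± 0.09, adjusted p = 0.00081, and -1.02 ± 0.09, adjusted p = 5.8e-05; -1.16 and -1.39 with median-ratio scaling).

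Of the proton-coupled SLC36 carriers, 3 were higher at E18 than in normal fed samples, as were 63.0% of all genes tested. Only Slc36a2 among them passed under all 3 scalings. Slc36a2, a carrier of glycine, alanine and proline, was listed at 0 in normal fed samples, at most 0.0486 TPM with DDC and at 70.1 and 40.0 TPM at E18 (adjusted p = 3.3e-06 against normal fed; DDC minus E18 -5.70 ± 0.26, adjusted p = 6e-06). Its neighbours on chromosome 11 did not share that pattern: Slc36a3 reached at most 0.0599 TPM, and Slc36a1, 19.3 kb away on the other strand, was at 9.17 and 4.16, 14.0 and 14.1, and 20.7 and 17.2 TPM. Slc36a1, found on lysosomes, passed with DDC (1.05 ± 0.33, adjusted p = 0.0458) and at E18 (1.45 ± 0.33, adjusted p = 0.0061), in neither with median-ratio scaling (0.46 and 0.36). Without normal fed sample 1 or 0 its values were 0.56 and 1.54 with DDC and 0.96 and 1.94 at E18, and neither call passed without either E18 sample, nor that of DDC without either DDC fed sample (adjusted p from 0.0585 to 0.182). Slc36a4 was at 2.30 and 1.07, 4.58 and 3.99, and 8.56 and 8.23 TPM, with 1.85 ± 0.25 at E18 (adjusted p = 0.00052; 0.94, adjusted p = 0.0066, with median-ratio scaling, but 0.09, adjusted p = 0.681, with quantile normalization) and 1.01 ± 0.25 with DDC (adjusted p = 0.0203; 0.58, adjusted p = 0.0752; not passing without any single DDC fed or E18 sample, 0.0783 to 0.126). Between DDC fed and E18 it passed at -0.83 ± 0.25 (adjusted p = 0.0241), turned to 0.05 with quantile normalization, and did not pass without any single DDC fed or E18 sample (0.0773 to 0.138).

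Slc38a9, the arginine sensor of the lysosome, was at 1.27 and 0.84 TPM in normal fed, 2.11 and 1.89 in DDC fed and 4.00 and 5.20 in E18 samples. It rose at E18 by 1.45 ± 0.19 (adjusted p = 0.00039; 0.64, adjusted p = 0.0109, with median-ratio scaling; -0.35 with quantile normalization). Its value with DDC was 0.55 ± 0.19 (adjusted p = 0.0566). Slc38a10, an SLC38 relative of less settled function, was among the higher members in every group, at 60.3 and 25.99, 124 and 97.0, and 83.8 and 72.4 TPM. It passed with DDC (1.45 ± 0.39, adjusted p = 0.0261; 0.79, adjusted p = 0.0875, with median-ratio scaling; 0.86 and 2.04 without normal fed sample 1 or 0), though not without any single DDC fed or E18 sample (0.0817 to 0.150), and was at 0.96 ± 0.39 at E18 (adjusted p = 0.0569). Slc38a6 was at 5.51 and 3.82, 12.0 and 9.73, and 10.1 and 9.86 TPM, with 1.08 ± 0.23 with DDC (adjusted p = 0.0116; 0.50, adjusted p = 0.0744, with median-ratio scaling) and 0.97 ± 0.23 at E18 (adjusted p = 0.0073), where the sign turned with median-ratio scaling (-0.07), and with quantile normalization the gene passed as lower (-0.63, adjusted p = 0.0132). Neither passed without either E18 sample, nor that of DDC without either DDC fed sample (0.054 to 0.111). Slc7a6os, the name-sharing neighbour of Slc7a6, was at 19.9 and 25.04, 18.5 and 21.3, and 30.5 and 29.9 TPM, with no call against normal fed (at E18 -0.74, adjusted p = 0.0408, with median-ratio scaling). It passed between DDC fed and E18 (-0.58 ± 0.20, adjusted p = 0.041), but not with median-ratio scaling (-0.07) or without any single DDC fed or E18 sample (0.125 to 0.251).

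**Figure D4:**
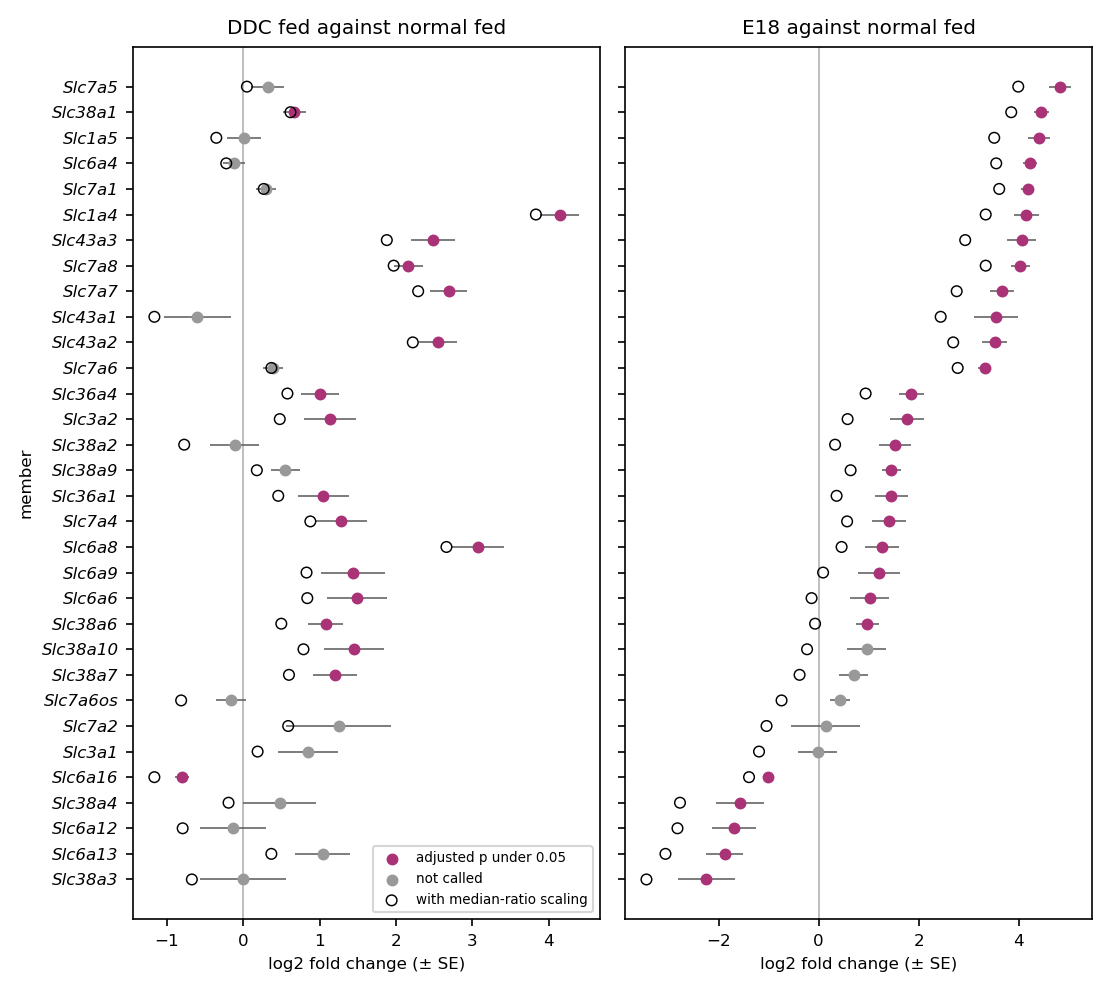
Log2 fold change (filled points, bars ± SE) of the tested members that were not listed at 0 in both normal fed samples, with DDC (left) and at E18 (right), each against normal fed, and the same value with median-ratio scaling (open circles). At E18 the members from Slc7a6 upward stay above 2 on the open circles, and with DDC Slc1a4, Slc6a8, Slc7a7, Slc43a2, Slc43a3 and Slc7a8 stand apart from the rest.

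The 24 members not tested had a group mean of at most 3.40 TPM, which belongs to Slc7a9. Apart from Slc7a9 all were below 1 TPM in each group mean, among them the brain carriers Slc6a5, Slc6a7, Slc6a11 and Slc6a17, the epithelial carriers Slc6a14 and Slc6a18, and Slc7a3, Slc7a10 and Slc7a15. Slc6a5 and Slc7a12 were listed at 0 in all 6 samples.

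Genes that act beside these carriers were taken from lists of their own. The first list held 22 genes of the amino acid response, which runs through ATF4 when amino acids are short. With DDC, 12 of the 22 were higher (54.5%, against 34.2% of all genes tested) and 0 lower (9 and 2 with median-ratio scaling). At E18, 17 were higher (77.3% against 63.0%) and 1 lower (12 and 5). Median fold changes of the 22 were 1.01 and 1.86, against 0.45 and 1.06 over all genes tested. Asns, asparagine synthetase, was at 0.310 and 0.157 TPM in normal fed, 1.28 and 2.10 in DDC fed and 124 and 119 in E18 samples (1.11 ± 0.22 and 6.64 ± 0.22). The serine synthesis enzymes Phgdh and Psat1 reached 88.7 and 70.8, and 245 and 168 TPM at E18, against at most 0.353 and 0.921 TPM in any adult sample, and neither passed with DDC (adjusted p = 0.32 and 0.15). Aldh18a1, of proline synthesis, rose in both (1.37 ± 0.17 and 5.19 ± 0.17).

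Of 9 enzymes of glutamine and glutamate, 3 were lower at E18 (33.3% against 12.7% of all genes tested; 7 with median-ratio scaling) and 0 were lower with DDC (3 with median-ratio scaling). Gls2, the glutaminase of adult liver, was at 304 and 178, 170 and 177, and 25.3 and 17.5 TPM, a fall at E18 of -3.40 ± 0.31 (adjusted p = 6.9e-05). The alanine transaminases Gpt and Gpt2 fell at E18 as well (-5.80 ± 0.29 and -3.38 ± 0.33).

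Of 26 genes of lysosomal amino acid sensing, through which Rag GTPases report amino acids to mTORC1, 8 were higher and 0 lower with DDC (4 and 2 with median-ratio scaling) and 14 higher and 0 lower at E18 (7 and 8). The shares higher, 30.8% and 53.8%, lay below the 34.2% and 63.0% of all genes tested. Rragd, a Rag GTPase, went from 0.126 and 0.0852 TPM in normal fed to 46.0 and 41.6 with DDC (5.34 ± 0.18, adjusted p = 9.8e-06) and was at 1.57 and 1.18 TPM at E18 (1.10 ± 0.18). Mlst8 and Sesn1 rose at E18 (2.19 ± 0.20 and 2.35 ± 0.24) and did not pass with DDC, and Rragb was listed at 0 in normal fed samples. Of 8 tested carriers of amino acids, peptides and creatine from other families 2 were higher (25% against 34.2%) and 0 lower with DDC, and 3 higher (37.5% against 63.0%) and 2 lower (25% against 12.7%) at E18, the same 2 and 0 and then 2 and 3 with median-ratio scaling. Slc15a3 and Slc15a4, lysosomal carriers of histidine and peptides, rose with DDC (2.34 ± 0.21 and 1.32 ± 0.22), Slc15a3 and Slc15a2 rose at E18 (3.93 ± 0.21 and 2.42 ± 0.21), and Slc16a12 fell there (-1.15 ± 0.34).

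Among 6 partner and trafficking proteins 4 were higher with DDC (66.7% against 34.2%) and 5 at E18 (83.3% against 63.0%; 3, and 4 with 1 lower, with median-ratio scaling). The kinases Sgk1 and Sgk3, which raise carriers at the cell surface, rose with DDC (2.07 ± 0.24 and 1.36 ± 0.20) and at E18 (3.15 ± 0.24 and 3.42 ± 0.20). The ubiquitin ligase Nedd4l, which removes membrane proteins from it, rose with DDC (1.66 ± 0.23, and 1.05 with median-ratio scaling). At E18 the value of Nedd4l was 0.06 ± 0.23, and with median-ratio scaling Nedd4l passed as lower (-1.0). Cltrn, the partner that Slc6a19 needs in kidney, was at 5.31 and 3.15 TPM at E18 and listed at 0 in each adult sample; the E18 samples were also those with Slc6a19 above 1 TPM.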

How the data were processed

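The authors deposited 1 table with TPM per gene in 6 columns, 2 for each group, each of which sums to 1000000. Per the submitters' processing notes, the build was GRCm38 (mm10) and the named tools, with no role given, include Cuffdiff 2.2.1, STAR 2.4.2a, HTSeq, Trimmomatic and DESeq2. The tool behind the TPM and its annotation were not given in the sources used here. Libraries were stranded per the labels' protocols. Column names give the group but not the single sample title.

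Gene IDs without version were matched to GENCODE M21 (48053 of 48432), all 62 members among them. The 14307 genes that reached 1 TPM in 2 or more samples were fitted as log2(TPM + 1) with limma 3.58.1 in R 4.3.3, with 1 mean per group, a variance trend on the mean, 3 residual degrees of freedom, two-sided tests and Benjamini-Hochberg adjustment over all genes tested, at 0.05. The fit was tested on simulated data. No count model was used, as TPM hold no counts. Tables and plots were made in Python 3.11.15 (pandas 2.3.3, matplotlib 3.10.9).

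Members with a group mean of at least 10 TPM were named with every sample, and others that passed with a group mean of at least 2 TPM with their values. Members listed at 0 in a whole group and at 1 TPM or more in another were named too. Slc6a16 and the untested members named beyond these were chosen after their values were seen, as were the motifs. From each list of other genes the 4 with the smallest adjusted p in a comparison with normal fed were named. The members and the lists were chosen with earlier results of these data known. Alternatives were a pseudocount of 0.1 or 5, other filters, scalings and variance settings, a correction for exon length, the replicate number in the fit and each sample left out. Results of 2 single genes are not reported here.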

Additional observations from a re-analysis of the deposited data

How the results depend on the processing

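The number of members higher with DDC (17) was 8 with median-ratio scaling, 8 with quantile normalization, 9 with no filter on low values and 10 with only the compared groups in the fit, and between 7 and 22 with 1 sample left out. The number lower with DDC (1) was 0 with a mean of at least 5 TPM, 4 with quantile normalization and between 1 and 3 with 1 sample left out. At E18 against normal fed, 27 were higher, a count that kept within 1.5 times in all alternatives, and of the 5 lower between 2 and 5 passed with 1 sample left out. Between DDC fed and E18, the 6 higher became 11 with median-ratio scaling, 12 with quantile normalization and 11 with only the compared groups, and between 2 and 11 with 1 sample left out, while the 20 lower kept within 1.5 times. A pseudocount of 0.1 or 5, no variance trend, the exon length correction and rescaling without the 50 highest genes and the erythroid markers, which was chosen after seeing the data, changed no count by over 1.5 times.

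Of single calls, 7 turned in sign, Slc38a6 under 2 settings. With quantile normalization these were Slc36a4 between DDC fed and E18 (0.05) and, at E18 against normal fed, Slc38a6 (-0.63), Slc38a9 (-0.35), Slc6a8 (-0.49), Slc6a9 (-0.08) and Slc7a4 (-0.36), and with median-ratio scaling Slc38a6 (-0.07) and Slc6a6 (-0.14) at E18. The cause was not tested. With the replicate block, that is the column number as a term, 20 members were higher and 1 lower with DDC, 29 and 5 at E18, and 8 and 20 between DDC fed and E18. Deviations of same-numbered samples correlated at 0.233, 0.139 and 0.061 across genes, so the numbers were not taken as pairs. Where a group is left with 1 sample, it is assumed to vary like the others. With 2 samples a group and no counts, depth and counting error limit the low members by an unknown amount.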
